A study of Mus musculus with 24 samples.

Results

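The genes examined were 10 components of the NF-kappaB system listed in the RNA-seq table of splenic regulatory T cell (Treg) subsets, namely the 5 subunits *Nfkb1*, *Nfkb2*, *Rel*, *Rela* and *Relb*, the inhibitors *Nfkbia*, *Nfkbib*, *Nfkbie* and *Tnfaip3*, and the co-regulator *Bcl3*. They were chosen by gene symbol, and all 10 were found among 17464 listed genes and passed the filter on low values. Wild-type C57BL/6JRccHsd mice gave the cells, 4 of them young (2 months old) and 4 old (26 months old), with no treatment named in the labels. Resting Treg (rTreg) cells were sorted as CD62L+ CD44-, activated Treg (aTreg) cells as CD62L- CD44+ and kTreg cells as KLRG1+, and each mouse gave 1 library of each subset, so that 24 libraries fell into 6 groups of 4. Values were read counts per gene divided by 1 size factor per library, here called normalized values, and a fold change is the difference of log2(value + 1).

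NF-kappaB is a family of dimeric transcription factors that inhibitor proteins hold in the cytoplasm. In the canonical arm, antigen or cytokine receptors activate the IKK kinases, the inhibitors IκBα, IκBβ and IκBε (encoded by *Nfkbia*, *Nfkbib* and *Nfkbie*) are degraded, and RelA (*Rela*) or c-Rel (*Rel*) enter the nucleus, often paired with p50, which is cut from the product of *Nfkb1*. In the non-canonical arm, receptors of the TNF family lead to processing of the *Nfkb2* product into p52, the partner of RelB (*Relb*). *Tnfaip3* encodes A20, a ubiquitin-editing enzyme that shuts off signalling upstream of IKK, and *Bcl3* encodes a nuclear member of the IκB family that binds p50 and p52. Several of these genes are themselves classical NF-kappaB targets, and in Treg cells c-Rel is known for its part in *Foxp3* induction.

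The sorted populations were checked first. *Klrg1* ranged from 16559 to 41561 in kTreg libraries and was at most 357 in the other subsets, so the sort marker matched the labels. *Foxp3*, the transcription factor that defines Treg cells, lay between 13151 and 37793, except in old aTreg replicate 2, where it was 5079. Some marker lists differed between libraries: the summed B cell markers were 17516, 10144 and 8337 in the rTreg, aTreg and kTreg libraries of young mouse 2 and at most 2065 in all other libraries, the summed macrophage and monocyte markers were 10272 to 26572 in old rTreg libraries, 20888 in young kTreg replicate 2, 8294 in young rTreg replicate 2 and at most 2932 elsewhere, the neutrophil markers were 5926 and 9545 in old rTreg replicates 2 and 3 and at most 2787 elsewhere, and the plasma cell markers were 3170 to 9383 in the same old rTreg libraries against at most 1972 elsewhere. Young kTreg replicate 4 listed 4913 genes at 0, against 419 to 2756 in the other libraries. Between 15045747 and 29521942 reads per library lay on listed genes.

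The promoter sequences of the members are shown here because 4 of the 10 held a match to the NF-kappaB consensus. The window was the 250 bases before the start of the Ensembl canonical transcript. *Nfkb2*, whose values differed between subsets, held no match, and the part of the matches in the values was not tested. The consensus was searched on both strands, and 1253 of 16539 promoters of the same length (7.58%) held a match. The matches lay 37 bases before the start in *Relb*, 97 in *Tnfaip3*, 29 in *Nfkbia* and 86 in *Nfkbie*, with that of *Nfkbia* on the opposite strand and that of *Tnfaip3* read on both strands at the same letters. Each line gives the stretch of GRCm39 that lies outside the annotated transcripts of the gene (GENCODE M39), or 30 bases around the match where it lies inside one, written 5′ to 3′ on the strand of the gene with the match in capitals.
Relb (chr7:19363426-19363673, minus strand): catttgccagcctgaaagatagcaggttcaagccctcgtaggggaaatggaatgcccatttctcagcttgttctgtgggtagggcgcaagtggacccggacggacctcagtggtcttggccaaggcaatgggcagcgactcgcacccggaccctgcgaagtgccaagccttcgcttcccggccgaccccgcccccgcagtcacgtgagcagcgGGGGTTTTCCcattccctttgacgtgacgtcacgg
Tnfaip3 (chr10:18891264-18891293, minus strand): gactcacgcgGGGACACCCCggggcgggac
Nfkbia (chr12:55539433-55539682, minus strand): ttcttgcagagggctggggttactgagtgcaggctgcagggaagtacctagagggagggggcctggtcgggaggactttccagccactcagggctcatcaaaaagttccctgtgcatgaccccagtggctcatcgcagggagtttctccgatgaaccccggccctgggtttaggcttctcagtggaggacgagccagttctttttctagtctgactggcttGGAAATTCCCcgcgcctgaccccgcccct
Nfkbie (chr17:45866356-45866584, plus strand): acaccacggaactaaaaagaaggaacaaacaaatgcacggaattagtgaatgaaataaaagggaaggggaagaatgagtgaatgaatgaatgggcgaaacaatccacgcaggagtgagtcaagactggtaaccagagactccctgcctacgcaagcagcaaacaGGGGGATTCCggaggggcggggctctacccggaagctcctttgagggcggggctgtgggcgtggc
No match was found in these windows of *Nfkb1*, *Nfkb2*, *Rel*, *Rela*, *Nfkbib* and *Bcl3*, which says only that these letters were not there. *Relb* (7:19339017-19363425) and *Bcl3* (7:19541553-19557570) lie on chromosome 7, 178 kb apart and both on the minus strand, and *Rela* and *Nfkb2* both lie on chromosome 19.

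The levels of the members were compared per kilobase of exon, the length being the union of all annotated exons of a gene. This length was 12848 bases for *Nfkb1* and 1937 for *Nfkbia*, and the order of the members depends on it. *Nfkbia* was the highest, with a mean of 8832 ± 2277 normalized units per kilobase (SD over the 24 libraries), followed by *Rela* at 1652 ± 155 and *Nfkbib* at 823 ± 104. *Bcl3* (561 ± 127), *Nfkbie* (512 ± 112), *Nfkb2* (504 ± 126), *Relb* (493 ± 111) and *Tnfaip3* (433 ± 264) followed at levels whose spreads overlapped. *Nfkb1* (181 ± 39) and *Rel* (82.1 ± 30.0) were the lowest. Taken as the highest over the lowest value, *Tnfaip3* had the widest range, from 149 to 1403 units per kilobase, while *Rela* stayed between 1418 and 1950. In units the widest range was that of *Nfkbia*, from 5427 to 15267.

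**Figure D1:**
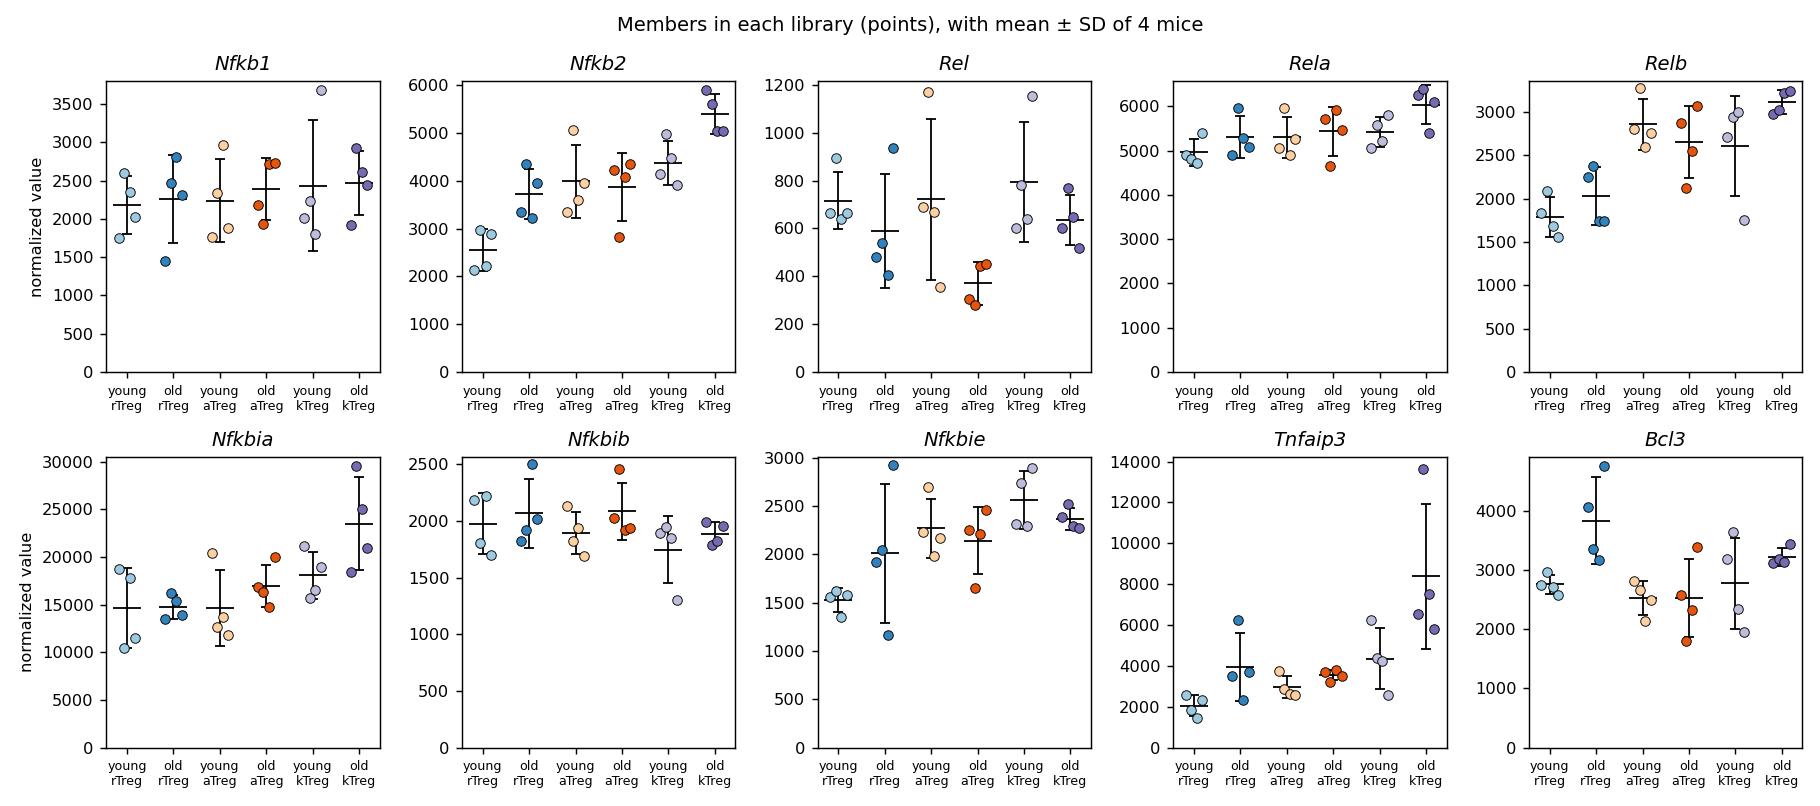
Normalized value (vertical axis, from 0) of each of the 10 members in each library (points) of the 6 groups (horizontal axis), with the mean and SD of 4 mice as a bar; points are placed left to right by replicate number. *Nfkb1*, *Nfkb2*, *Rela*, *Relb*, *Nfkbia* and *Tnfaip3* reached their highest group means in old kTreg libraries, although *Rela* stayed within a narrow band in all groups.

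The first comparison asked how kTreg cells differed from rTreg cells in these genes. *Tnfaip3* and *Nfkb2* were higher in kTreg cells in 8 of 8 mice, by 2.10-fold and 1.58-fold, and both were called in limma with the ages weighted equally, a call requiring a p under 0.05 after Benjamini-Hochberg adjustment over all tested genes together with a change of more than 1.5-fold. These 2 of 10 members stand against 9.37% of all 16630 tested genes called higher, and 0 members stand against 6.09% called lower. *Relb*, *Nfkbie* and *Nfkbia* also rose past the adjusted p but stayed below the fold limit, so that 5 of 10 members were higher by adjusted p alone, against 12.5% of all genes. The median log2 fold change of the 10 members was 0.33, and that of all tested genes was -0.01.

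*Tnfaip3*, the A20 gene (10:18874201-18891405), had normalized values of 2579, 1839, 1442 and 2337 in young rTreg libraries and 6226, 4392, 4228 and 2569 in young kTreg libraries (replicates 1 to 4). In old mice it had 3497, 6272, 2333 and 3684 in rTreg libraries and 6553, 13625, 7516 and 5829 in kTreg libraries. Each mouse had more in its kTreg than in its rTreg library, by 1.10- to 3.22-fold, although the groups overlapped within each age. The log2 fold change was 1.07 ± 0.20 (SE), with an adjusted p of 4.1e-04 in limma. It was 1.05 ± 0.28 in young and 1.09 ± 0.28 in old mice, and the difference between the ages was 0.04 ± 0.40 (adjusted p = 0.97 in limma).

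*Nfkb2*, the p100 and p52 gene (19:46292759-46303812), had 2125, 2972, 2223 and 2892 in young rTreg libraries and 4131, 4978, 4468 and 3900 in young kTreg libraries. In old mice it had 3351, 4352, 3226 and 3961 in rTreg libraries and 5895, 5606, 5050 and 5041 in kTreg libraries. All kTreg libraries of an age lay above all rTreg libraries of that age. Whether groups overlapped is given here and below as a description, since the share of all genes without overlap was not counted. The log2 fold change was 0.66 ± 0.11 with an adjusted p of 9.3e-05 in limma, the smallest of the 10 members, and it was called without both mice numbered 2 as well (0.70 ± 0.09). Within young mice it was 0.79 ± 0.15 and within old mice 0.54 ± 0.15.

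*Relb*, which encodes the partner of p52, had 1834, 2093, 1685 and 1560 in young rTreg libraries and 2717, 2941, 3005 and 1758 in young kTreg libraries. In old mice the values were 2252, 2377, 1741 and 1738 in rTreg and 2976, 3020, 3224 and 3246 in kTreg libraries. The old groups did not overlap, and the young groups overlapped through young kTreg replicate 4. The log2 fold change was 0.58 ± 0.11 (adjusted p = 5.4e-04 in limma; higher in 8 of 8 mice), just under the limit of 0.585. Without young kTreg replicate 4 it was 0.66 and passed both limits. This was the highest of 29 alternatives, of which 8 called *Relb*, and the lowest was 0.54 without young kTreg replicate 3.

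The inhibitor genes *Nfkbie* and *Nfkbia* followed. *Nfkbie* had 1560, 1620, 1351 and 1585 in young rTreg libraries and 2311, 2736, 2299 and 2893 in young kTreg libraries, with no overlap. In old mice its rTreg values spread over 1923, 2041, 1166 and 2923, and its kTreg values of 2390, 2525, 2292 and 2278 lay within that spread. The log2 fold change was 0.52 ± 0.13 over both ages (adjusted p = 0.0055 in limma; higher in 7 of 8 mice), 0.74 ± 0.19 in young and 0.31 ± 0.19 in old mice, with a difference between the ages of -0.43 ± 0.26 (adjusted p = 0.41 in limma). It was 0.63 without old rTreg replicate 4 and 0.41 without old rTreg replicate 3, the highest and the lowest value of that group.

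*Nfkbia*, the IκBα gene (12:55535332-55539432), had 18716, 10513, 17759 and 11530 in young rTreg libraries and 21154, 15712, 16583 and 19000 in young kTreg libraries. In old mice it had 13457, 16226, 15357 and 13970 in rTreg libraries and 18451, 29572, 25042 and 20990 in kTreg libraries. The old groups did not overlap, whereas the young groups did. The log2 fold change was 0.50 ± 0.13 (adjusted p = 0.0086 in limma; higher in 7 of 8 mice), and it was 0.42 with an adjusted p of 0.054 without both mice numbered 2.

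The other members did not pass the test between kTreg and rTreg cells. *Rela* differed by a log2 fold change of 0.16 ± 0.07 and was higher in 8 of 8 mice (adjusted p = 0.090 in limma). *Nfkb1*, with 0.14 ± 0.16, *Rel*, with 0.14 ± 0.21, *Nfkbib*, with -0.15 ± 0.10, and *Bcl3*, with -0.13 ± 0.13, differed by less than their error allowed to call. In old mice, summed macrophage markers were 10272 to 26572 in rTreg and 1993 to 2932 in kTreg libraries. In young mice they were 584 to 8294 in rTreg and 351 to 20888 in kTreg libraries, with the highest value of each in replicate 2. The part of other cells in these differences was not tested beyond leaving out mice. In bulk samples, fewer cells of a type and less RNA per cell cannot be told apart.

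**Figure D2:**
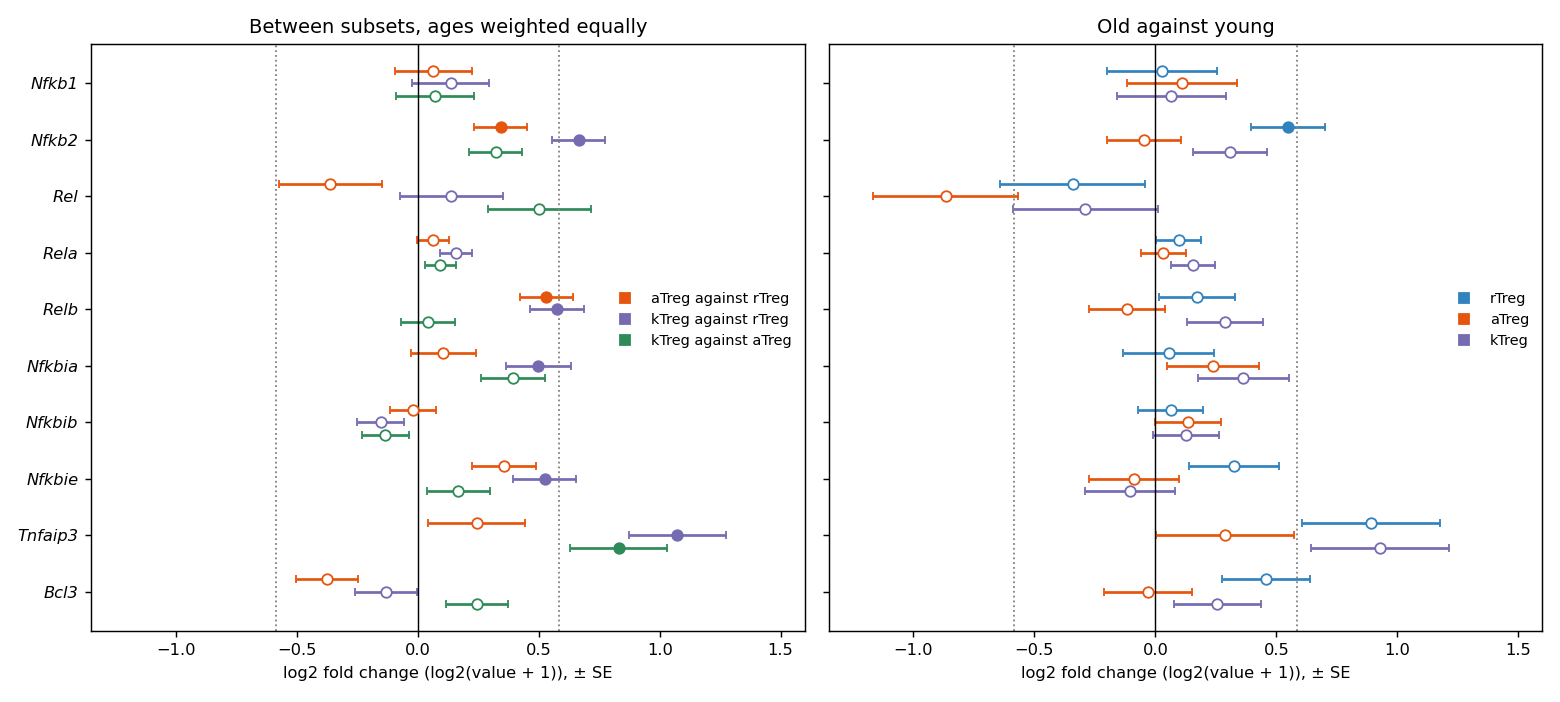
Log2 fold change of log2(value + 1) ± SE (horizontal axis) of the 10 members (vertical axis) between subsets (left, 8 mice per subset) and between old and young mice in each subset (right, 4 against 4). Filled points passed the adjusted p, dotted lines mark a fold of 1.5 in either direction, and the filled points beyond them are *Tnfaip3* and *Nfkb2* between kTreg and rTreg cells and *Tnfaip3* between kTreg and aTreg cells.

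Between kTreg and aTreg cells, *Tnfaip3* was the member called. It was higher in kTreg cells by a log2 fold change of 0.83 ± 0.20 (1.78-fold, adjusted p = 0.0084 in limma; higher in 7 of 8 mice). This is 1 of 10 members, against 4.13% of all tested genes called higher and 3.26% called lower. The aTreg values of *Tnfaip3* were 3734, 2874, 2604 and 2591 in young and 3708, 3226, 3811 and 3515 in old mice. In old mice every kTreg library lay above every aTreg library (log2 fold change 1.15 ± 0.28), and in young mice the groups overlapped (0.51 ± 0.28, with an adjusted p of 0.30 in limma), while the difference between the ages was 0.64 ± 0.40 (adjusted p = 0.62 in limma). Without both mice numbered 2 the fold change over both ages was 0.66 with an adjusted p of 0.060, and it was no longer called.

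For *Nfkbia*, all 8 mice had more in kTreg than in aTreg cells, but the log2 fold change of 0.39 ± 0.13 had an adjusted p of 0.058 in limma. *Nfkb2* gave 0.32 ± 0.11 (adjusted p = 0.056 in limma), with no overlap between the old groups. *Rel*, the c-Rel gene, gave 0.50 ± 0.21 (adjusted p = 0.14 in limma), and in old mice its kTreg values of 600, 768, 647 and 519 all lay above its aTreg values of 307, 280, 443 and 452. Leaving out young aTreg replicate 2, which had the highest *Rel* value of that group, made it 0.64 with an adjusted p of 0.040 in limma, the second call of this comparison. This was the only 1 of 29 alternatives that called *Rel*. The log2 fold change was 0.35 without young aTreg replicate 4, and the adjusted p was 0.40 in limma without old mouse 2. *Relb* differed by 0.04 ± 0.11, so its level in kTreg cells was within the error of that in aTreg cells.

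Between aTreg and rTreg cells no member was called over both ages by limma, by edgeR or by DESeq2, against 5.23% of all tested genes called higher and 2.78% called lower in limma, and 4 members had an unadjusted p under 0.05, against 21.8% of all genes. *Relb* (log2 fold change 0.53 ± 0.11, adjusted p = 0.0026) and *Nfkb2* (0.34 ± 0.11, adjusted p = 0.046) were higher in aTreg cells by adjusted p in limma but under the fold limit, which makes 2 of 10 members against 6.61% of all genes. *Relb* had 2804, 3272, 2594 and 2758 in young aTreg libraries and 2874, 2118, 2548 and 3067 in old ones, and it was higher in aTreg than in rTreg cells in 7 of 8 mice. The exception was old mouse 2, whose aTreg library was also the one with the low *Foxp3* value, and *Relb* was called without the libraries of that mouse (0.62 ± 0.12). *Bcl3* gave -0.38 ± 0.13 and was lower in aTreg cells in 7 of 8 mice (adjusted p = 0.067 in limma). In young mice alone *Relb* (0.68 ± 0.16, adjusted p = 0.014 in limma) and *Nfkb2* (0.64 ± 0.15, adjusted p = 0.018 in limma) were called higher in aTreg cells with no overlap between the groups, against 2.71% of all genes called higher. In old mice alone the *Bcl3* difference of -0.62 ± 0.18 was called (adjusted p = 0.032 in limma), against 3.78% of all genes called lower, with aTreg values of 2577, 1803, 2327 and 3393 and rTreg values of 4063, 3346, 3159 and 4761. *Nfkbie* gave 0.36 ± 0.13 (adjusted p = 0.095 in limma).

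The effect of age was then compared within each subset. No member was called by limma or edgeR in any subset, whereas 4.12% of all genes were called higher and 1.71% lower in old rTreg cells, 1.85% and 0.86% in old aTreg cells, and 1.02% and 0.235% in old kTreg cells. The number of members with an unadjusted p under 0.05 was 3 in rTreg, 1 in aTreg and 1 in kTreg cells, against 22%, 12.5% and 15.5% of all genes. DESeq2 called 1 member in each subset, against 8.62%, 4.21% and 2.56% of all genes.

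In rTreg cells, *Nfkb2* was higher in old mice by a log2 fold change of 0.55 ± 0.15 (adjusted p = 0.033 in limma) with no overlap between the ages, the lowest old value of 3226 lying above the highest young value of 2972. It is 1 of 10 members past the adjusted p alone, against 4.54% of all genes. *Bcl3* did not overlap between the ages either, with 2752, 2968, 2717 and 2583 in young rTreg libraries and the old values given above, but its adjusted p was 0.13 in limma (0.46 ± 0.18). How many of all genes lacked overlap between the ages was not counted. *Tnfaip3* differed by 0.89 ± 0.28 (1.85-fold, adjusted p = 0.062 in limma) and was called by DESeq2, with a log2 fold change of 0.95 and an adjusted p of 0.017. Old rTreg replicate 2 held its highest value of that group, 6272, and the difference was 0.64 ± 0.24 (adjusted p = 0.13 in limma) without the libraries of old mouse 2. The summed macrophage and plasma cell markers that were high in the old rTreg libraries moved with the same comparison, and their part in it was not tested.

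In kTreg cells, *Tnfaip3* was 1.90-fold higher in old mice (log2 fold change 0.93 ± 0.28, adjusted p = 0.11 in limma) and was called by DESeq2 (0.95, adjusted p = 0.039). The value of 13625 in old kTreg replicate 2 was the highest of all 24 libraries, and without that library the difference was 0.67 with an adjusted p of 0.34. *Nfkb2* had a lowest old value of 5041 above a highest young value of 4978, with a log2 fold change of 0.31 ± 0.15 (adjusted p = 0.34 in limma). *Nfkbia* differed by 0.36 ± 0.19 (adjusted p = 0.36 in limma) and *Relb* by 0.29 ± 0.16 (adjusted p = 0.37 in limma).

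In aTreg cells, *Rel* was the member with the largest difference, at -0.87 ± 0.30 (adjusted p = 0.15 in limma). Its young values were 690, 1171, 669 and 354 and its old values lay between 280 and 452, so the ages overlapped through young aTreg replicate 4 alone. Without that library the log2 fold change was -1.17 with an adjusted p of 0.033 in limma, and DESeq2 called it at -0.96 with all libraries (adjusted p = 0.037). These were the only 2 of 21 alternatives that called it, and over the 21 the log2 fold change ranged from -1.17 to -0.47. The highest young value, 1171, was that of young aTreg replicate 2, a library with summed B cell markers of 10144. *Rel* was also lower on average in old rTreg (-0.34 ± 0.30) and old kTreg cells (-0.29 ± 0.30), neither of which passed the test.

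Whether age changed the differences between subsets was tested as an interaction, and no member was called by limma, edgeR or DESeq2 in any of the 3 subset comparisons. The share of all genes called was 0.156% for kTreg against aTreg, 3.02% for kTreg against rTreg and 1.56% for aTreg against rTreg, and the members with an unadjusted p under 0.05 numbered 0, 0 and 1, against 9.4%, 17.2% and 15.8% of all genes. That 1 was *Nfkb2*, whose difference between aTreg and rTreg cells was 0.64 ± 0.15 in young and 0.04 ± 0.15 in old mice (interaction -0.60 ± 0.22, adjusted p = 0.17 in limma).

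The upstream components of the pathway were listed as 25 kinases and adaptors. Between kTreg and rTreg cells 1 was called higher and 1 lower, against 9.37% and 6.09% of all genes. Between kTreg and aTreg cells 1 was called higher and 0 lower, against 4.13% and 3.26%. Between aTreg and rTreg cells 1 was called higher and 0 lower, against 5.23% and 2.78%. *Malt1*, a paracaspase that carries antigen receptor signals to IKK and cleaves A20, was higher in kTreg than in rTreg cells by a log2 fold change of 1.38 ± 0.16 and in aTreg than in rTreg cells by 0.80 ± 0.16 (adjusted p = 8.6e-07 and 0.0014 in limma). Its difference between kTreg and aTreg cells, 0.59 ± 0.16, was called but kept the call in 15 of 29 alternatives. *Prkcq*, which encodes protein kinase C theta, a kinase of the same pathway, was lower in kTreg than in rTreg cells by -0.61 ± 0.11 (adjusted p = 1.6e-04 in limma), a call that was lost without young rTreg replicate 4, old rTreg replicate 1 or old rTreg replicate 4. The median log2 fold change of the 25 genes between kTreg and rTreg cells was 0.01, beside -0.01 for all tested genes.

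Of 20 genes listed as other inhibitors or co-regulators of the pathway, 5 were called higher in kTreg than in rTreg cells. Among these, 3 were also called higher than in aTreg cells. The shares of all genes called higher were 9.37% and 4.13%. The 3 were *Nfkbiz*, which encodes the nuclear IκBζ, *N4bp1*, which encodes a suppressor of NF-kappaB signalling, and *Zc3h12a*, which encodes the RNase Regnase-1. *Nfkbiz* differed by 1.03 ± 0.17 from aTreg and 0.83 ± 0.17 from rTreg cells, *N4bp1* by 0.95 ± 0.17 and 1.38 ± 0.17, and *Zc3h12a* by 0.78 ± 0.16 and 0.73 ± 0.16, with adjusted p between 2.5e-06 and 0.0019 in limma. These calls were kept in all 29 alternatives. The other 2 called against rTreg cells were *Nfkbid* and *Tnip3*. The median log2 fold change of the 20 genes was 0.29 between kTreg and rTreg cells and 0.14 between kTreg and aTreg cells, beside -0.01 and -0.08 for all genes.

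Known NF-kappaB targets moved in both directions. Of 32, 11 were higher and 6 lower in kTreg than in rTreg cells, and 8 were higher and 4 lower in kTreg than in aTreg cells. Of all tested genes 9.37% were called higher and 6.09% lower in the first comparison, and 4.13% and 3.26% in the second. The median log2 fold change of the 32 was 0.13 and 0.42, beside -0.01 and -0.08 for all genes. *Ebi3*, a subunit of the cytokines IL-27 and IL-35, was 2.44 ± 0.17 higher than in rTreg cells and 1.16 ± 0.17 higher than in aTreg cells on the log2 scale, without overlap in either comparison. *Cd83*, a surface marker of activated lymphocytes, and *Plk3*, a stress-responsive kinase, were higher than in rTreg cells by 1.71 ± 0.14 and 1.51 ± 0.14, and *Bcl2l1*, the gene of the survival protein BCL-XL, was higher than in aTreg cells by 0.88 ± 0.10. Against these, the homing receptor gene *Ccr7* (-3.28 ± 0.20), the lymphotoxin gene *Lta* (-1.27 ± 0.14) and *Myc* (-1.30 ± 0.15) were lower in kTreg than in rTreg cells, and *Tnf* was lower in kTreg than in aTreg cells (-0.70 ± 0.10). Between aTreg and rTreg cells, 8 of the 32 were called higher, *Tnf* among them at 0.81 ± 0.10, and 5 lower, against 5.23% and 2.78% of all genes.

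With age, 7 of the 32 targets were called higher and 1 lower in old rTreg cells, while 1 was higher and 3 lower in old aTreg cells and 1 was higher in old kTreg cells. The shares of all genes called higher and lower were 4.12% and 1.71% in rTreg, 1.85% and 0.86% in aTreg, and 1.02% and 0.235% in kTreg cells. *Ccl4*, a chemokine gene, lay between 10 and 65 in young and between 1236 and 7644 in old rTreg libraries. *Il6* lay at or below 4 in young and between 131 and 454 in old rTreg libraries, and between 46 and 70 in old kTreg libraries against at most 5 in young ones. *Ccl5*, another chemokine gene, rose with age in rTreg (2.59 ± 0.31) and aTreg cells (1.86 ± 0.31). The summed NK cell markers were 839 to 1871 in old and 270 to 586 in young rTreg libraries, and 505 to 1774 in old and 663 to 729 in young aTreg libraries, and NK cells also express *Ccl5* and *Ccl4*. Macrophages also express *Ccl4* and *Il6*, the macrophage markers of the old rTreg libraries are given above, and the part of both cell types in these values was not tested.

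Receptors that feed the pathway were examined last. Of 27 receptors and proximal adaptors, 9 were called higher in kTreg than in rTreg cells, and 8 higher and 2 lower than in aTreg cells, beside the shares of all genes given for the targets. The median log2 fold change of the 27 was 0.29 against rTreg and 0.15 against aTreg cells, beside -0.01 and -0.08 for all genes. *Il1rl1*, the gene of the IL-33 receptor ST2, lay between 3355 and 5859 in kTreg libraries and between 139 and 257 in aTreg libraries (4.57 ± 0.16). *Tnfrsf4* and *Tnfrsf18*, which encode the costimulatory TNF receptors OX40 and GITR, were higher than in aTreg cells by 0.95 ± 0.14 and 0.81 ± 0.12, and *Tnfrsf1b*, the gene of TNFR2, was higher than in rTreg cells by 1.97 ± 0.19. *Cd28* was lower than in aTreg cells (-0.63 ± 0.10). In old rTreg cells 4 of the 27 were called higher, against 4.12% of all genes, with *Il1rl1* between 629 and 1249 in old and between 132 and 209 in young libraries. The summed macrophage, plasma cell and NK cell markers were also higher in these old rTreg libraries. The part of such cells in these calls was not tested.

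**Figure D3:**
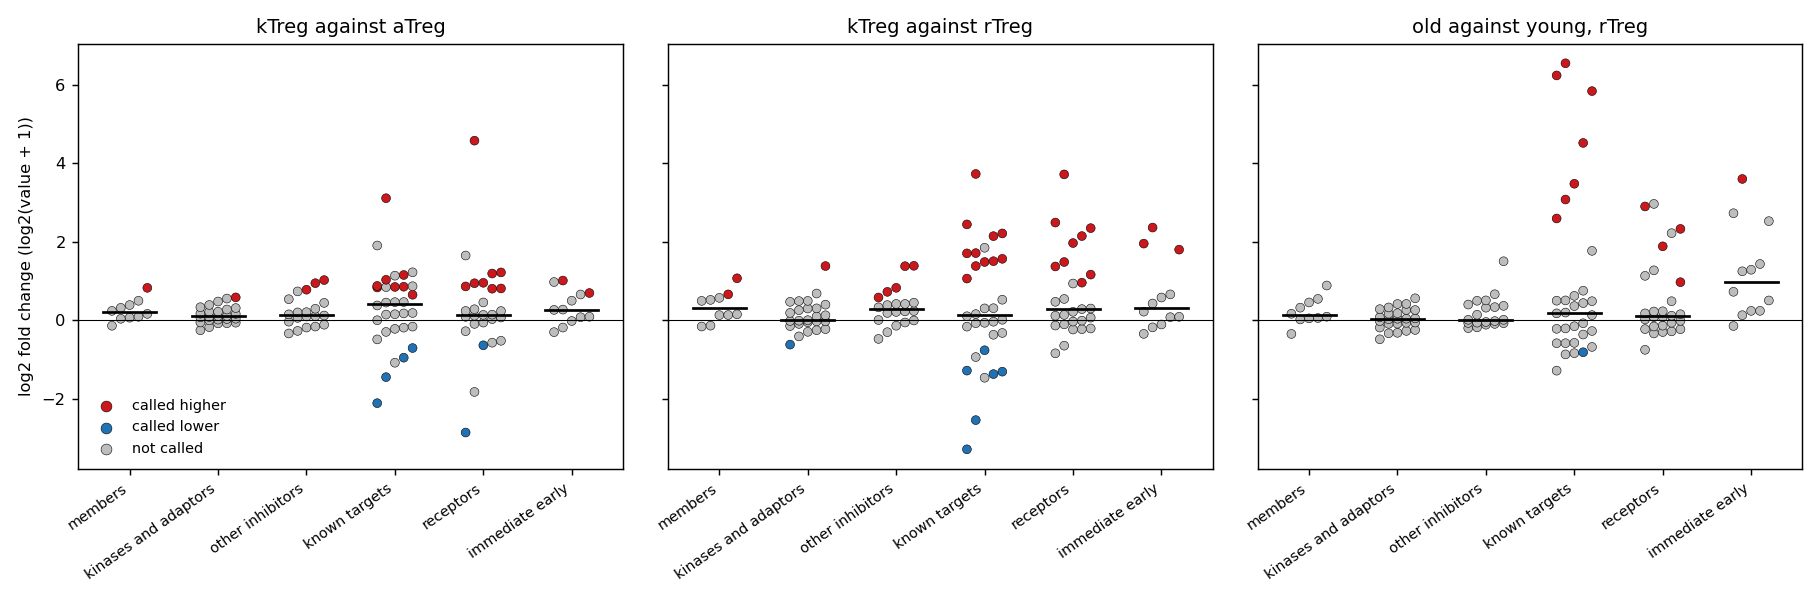
Log2 fold change of log2(value + 1) (vertical axis) of every tested gene of the members and of the 5 pathway lists (horizontal axis) in 3 comparisons, coloured by whether it was called higher, called lower or not called, with a black bar at the list median. Receptors and known targets spread widely in both kTreg comparisons, while most kinases and adaptors lay near 0.

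*Tnfaip3* and *Nfkbia* also varied with genes that respond within minutes to stimulation or stress. The list of 12 immediate early and heat shock genes (*Fos*, *Fosb*, *Jun*, *Egr1*, *Ier2*, *Nr4a1*, *Dusp1*, *Atf3*, *Zfp36*, *Btg2*, *Hspa1a* and *Hspa1b*) had a summed value of 23796 to 73890 in young and 40562 to 135655 in old libraries. Over the 24 libraries of 8 mice, log2 of this sum correlated with *Nfkbia* at a Pearson's r of 0.80 (Spearman's rho 0.70) and with *Tnfaip3* at 0.69 (rho 0.62). Without the 2 libraries farthest from the median sum, r over 22 libraries was 0.66 for *Nfkbia* and 0.49 for *Tnfaip3*. After each group's mean was taken away, r was 0.71 and 0.42. These are descriptions, since libraries of a mouse share the animal and the tissue handling. Among the other members r ranged from -0.28 (*Rel*) to 0.21 (*Nfkb2*). After each group's mean was taken away it was -0.59 for *Nfkb2*, -0.35 for *Nfkbie* and -0.35 for *Bcl3*, so other members also varied with the sum, in the opposite direction.

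Old mouse 2 had the highest sum of its age in each subset, 66827 in rTreg, 87439 in aTreg and 135655 in kTreg cells. Its rTreg and kTreg libraries held the highest *Tnfaip3* and *Nfkbia* values of their groups, and its aTreg library held the lowest *Tnfaip3* value of the old aTreg group. Young mouse 2 had the lowest sum in each young subset. Of the 12 genes, *Dusp1*, *Hspa1a* and *Hspa1b* were called higher in kTreg than in rTreg cells, against 9.37% of all genes. *Zfp36* and *Nr4a1* were called higher in kTreg than in aTreg cells, against 4.13%, the call of *Nr4a1* being lost without old kTreg replicate 2. *Nr4a1* was called lower in aTreg than in rTreg cells, against 2.78%. With age, *Hspa1a* was called higher in rTreg cells, against 4.12%. In old aTreg cells *Hspa1a* and *Hspa1b* were called higher and *Nr4a1* lower, against 1.85% and 0.86%. The list's median difference between old and young mice was 0.99 in rTreg, 0.53 in aTreg and 1.04 in kTreg cells on the log2 scale, beside -0.08, 0.01 and 0.12 for all genes, and its part in the *Tnfaip3* and *Nfkbia* differences was not tested.

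**Figure D4:**
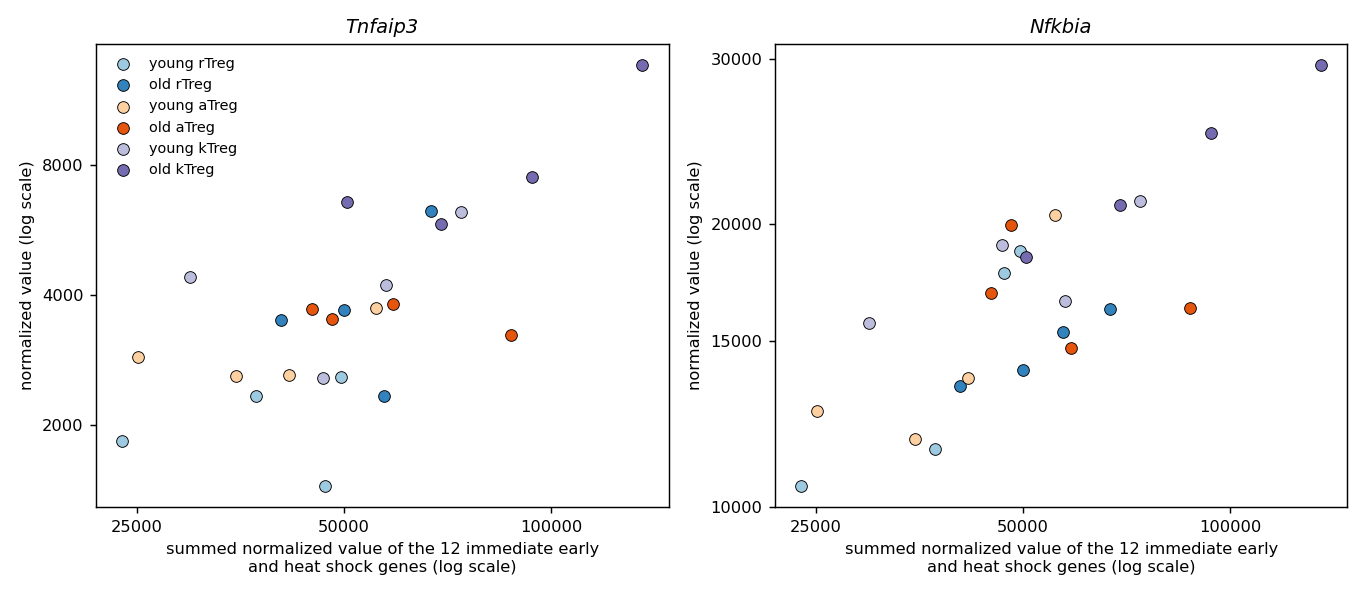
Normalized value of *Tnfaip3* (left) and *Nfkbia* (right) against the summed normalized value of 12 immediate early and heat shock genes, both on log scales, with 1 point per library coloured by group. The old kTreg library at 135655 is at the top right of both panels.

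For each member, the tested gene outside the members with the most similar log2 values over the 24 libraries was found. *Nfkbia* was closest to *Dusp1*, an immediate early phosphatase gene (r = 0.88), and *Tnfaip3* to *Pmaip1*, which encodes the pro-apoptotic protein NOXA (r = 0.91). *Relb* was closest to *Calhm2* (r = 0.92), *Nfkbie* to *E130308A19Rik* (r = 0.92) and *Nfkb2* to *Pear1* (r = 0.92). *Nfkbib* was closest to *Mrpl13*, a mitochondrial ribosomal protein gene (r = 0.87), *Nfkb1* to *Marf1* (r = 0.87), *Rel* to *Bcor* (r = 0.82), *Bcl3* to *Krt80* (r = 0.81) and *Rela* to *Znfx1* (r = 0.80). Each r is the highest of those with all other tested genes and is given as a description.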

How the data were processed

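Treg subsets were sorted from spleens, and SMART-Seq v4 cDNA, which is amplified by PCR without molecular identifiers, was sequenced as paired-end reads. According to the methods and the labels, the authors aligned the reads to GRCm39 with HISAT2 2.2.1, used SAMtools 1.13, counted reads per gene with HTSeq 1.99.2 and ran DESeq2 1.44.0. The deposited values are a normalized signal, the reads of a gene divided by 1 size factor per library. The annotation release, strand setting and handling of multiply mapped reads are not given in the sources used here. Whole reads were recovered for 100% of the values, within 0.001 reads, and used for edgeR 4.0.16 and DESeq2 1.42.0 as alternatives. The smallest sum of reads of a listed gene was 100.

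Comparisons were made on log2(value + 1) with limma 3.58.1 (R 4.3.3, empirical Bayes with a trend in the variance). The model held the 6 group means, and 16630 genes entered it, those reaching a value of 10 in 4 or more libraries. A gene counted as called when its p, adjusted by Benjamini and Hochberg over all tested genes, was under 0.05 and its fold exceeded 1.5. Fits were tested on simulated data. Gene symbols, positions and exon lengths came from GENCODE M39, which held 17353 of the identifiers. Plots and summaries used Python 3.11.15 with pandas 2.3.3, numpy 2.4.6, matplotlib 3.10.9 and pysam 0.24.0.

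The members, gene lists and tests were chosen with earlier results of these data known. Named were the 10 members, from each list up to 3 called genes with the smallest p per direction and comparison, and for each member the gene of highest r; *Nfkbid* and *Tnip3* were named to complete counts. Promoters were read from GRCm39 for 16539 tested genes. By the design text of the series, 1 mouse gave all 3 subsets, and libraries are paired by replicate number. Deviations from group means correlated within a mouse with a median of 0.15 (rTreg and aTreg), 0.091 (rTreg and kTreg) and 0.12 (aTreg and kTreg). Tried as alternatives were pseudocounts of 0.5 and 5, no filter, a minimum value of 50, a replicate block for the mouse, a model of only the groups compared, equal totals, quantile normalization, edgeR, DESeq2, other call rules and each library left out. After the data were seen, leaving out young mouse 2, old mouse 2 or both was added. The ± of a fold change is its standard error in limma, from a spread pooled over all 24 libraries. The ± of a level is the SD over the 24 libraries, and the ± of a ratio is the SD over the libraries of a group.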

Additional observations from a re-analysis of the deposited data

Results flagged for a closer look

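In 60 groups of 4 libraries (10 members in 6 groups), 2 values lay far from the rest of their group, and chance alone flags about 1 in 20 groups. *Rel* in young rTreg replicate 2 was 894, against 639 to 666 in the other 3 libraries. The same library held the highest summed B cell markers of the data set, 17516. *Nfkbib* in young kTreg replicate 4 was 1305, against 1850 to 1941 in the other 3 libraries, in the library that listed 4913 genes at 0. The part of these library features in the values was not tested. No interaction of age with a subset comparison passed the adjusted p for any member in limma.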

How the results depend on the processing

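The number of members called was 1 between kTreg and aTreg cells, 2 between kTreg and rTreg cells and 0 in the other comparisons, and the replicate block, edgeR, both pseudocounts, both filters, the smaller model and both rescalings left every one of these numbers within 1.5 times. With the mouse as a replicate block the numbers were 1, 2 and 0, as without it, and the block changed no call of a member. Without both mice numbered 2 the number between kTreg and aTreg cells was 0. Between aTreg and rTreg cells it was 1 without old mouse 2 and 1 without both mice numbered 2. In old against young rTreg cells it was 1 by DESeq2 and 1 without young mouse 2, and DESeq2 gave 1 in aTreg and 1 in kTreg cells. With adjusted p and no fold limit, 5 members differed between kTreg and rTreg, 2 between aTreg and rTreg and 1 between old and young rTreg cells. With unadjusted p and the fold limit, 1 member differed with age in each of rTreg, aTreg and kTreg cells, and 1 in the interaction of age with aTreg against rTreg cells. Leaving out 1 library at a time gave 1 to 2 members between kTreg and aTreg cells, 2 to 3 between kTreg and rTreg cells, 0 to 2 in old against young rTreg cells and 0 to 1 in old against young aTreg cells. In rTreg cells the added calls were *Nfkb2* without young replicate 2, young replicate 4, old replicate 1 or old replicate 3, and *Tnfaip3* without old replicate 3, and the cause was not tested.

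No single-gene difference that was called, or that had an unadjusted p under 0.05, turned its direction in any alternative run. Of the named list genes, 52 of 64 gene and comparison pairs were called in all alternatives, and *Lta* and *Cd83* in old against young aTreg cells, each called in 11 of 21, were among the least stable. Over all genes, edgeR called 727 higher and 484 lower between kTreg and aTreg cells, against 687 and 542 in limma. The genes called with age were 209 in kTreg cells by limma, 109 by edgeR and 426 by DESeq2, and 451 in aTreg cells by limma and 700 by DESeq2. With only the groups compared they were 57 in kTreg, 767 in aTreg and 478 in rTreg cells (970 by limma over all groups). Leaving out 1 library gave as few as 77 in kTreg (without old kTreg replicate 4; 93 without old replicate 1 and 111 without old replicate 2), 244 in aTreg (without old aTreg replicate 2; 286 and 290 without young replicates 2 and 4) and 493 in rTreg cells (without young rTreg replicate 3). The interaction of age with aTreg against rTreg cells had 259 by limma, 398 with the block and 623 by DESeq2. That with kTreg against rTreg cells had 503 by limma and 848 by DESeq2, and that with kTreg against aTreg cells 26 by limma and 134 by DESeq2. Leaving out 1 library brought these 3 interactions down to 80 (without young rTreg replicate 3), 276 (without young rTreg replicate 3) and 3 (without old aTreg replicate 1, young aTreg replicate 3 or 4, or old kTreg replicate 2, 3 or 4), and the last rose to 52 without young kTreg replicate 2. With 4 mice per age, a difference of 0.93 ± 0.28 in *Tnfaip3* did not pass the adjusted p in limma, so smaller changes with age may have been missed.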

Other observations

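Ratios of member transcripts, per kilobase of exon, were compared between groups, and their size depends on the exon lengths used. The ratio of *Nfkb2* to *Nfkb1* was 1.93 ± 0.32 (SD, n = 4) in young rTreg cells and 3.65 ± 0.90 in old kTreg cells, with the other groups between 2.64 and 3.18. The ratio of *Relb* to *Rela* was 0.23 ± 0.04 in young and 0.25 ± 0.04 in old rTreg cells, with a highest value of 0.295. It was 0.35 ± 0.01 in young aTreg cells (lowest 0.34) and 0.33 ± 0.04 in old kTreg cells (lowest 0.305), without overlap with rTreg cells. Old aTreg cells (0.31 ± 0.04, lowest 0.28) and young kTreg cells (0.31 ± 0.08, lowest 0.20) overlapped with rTreg cells. The ratio of *Rel* to *Rela* was lowest in old aTreg cells, at 0.029 ± 0.006, and 0.044 to 0.061 in the other groups. These ratios are descriptions and were not tested.

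Among the 45 pairs of members, the highest Pearson's r over the 24 libraries was that of *Nfkb2* and *Rela* (0.78), followed by *Nfkb2* and *Relb* (0.77) and *Nfkb2* and *Nfkbie* (0.76). After each group's mean was taken away these were 0.69, 0.53 and 0.58. *Relb* and *Bcl3*, which lie 178 kb apart on chromosome 7, had an r of 0.09 over the libraries and 0.58 after the group means were taken away. *Nfkbib* and *Nfkbie* had the lowest value, -0.55. The libraries share mice and depth, so these values are given without a test.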
